A study of Mus musculus with 21 samples.

Results

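The proteoglycans of the perineuronal net, the proteins that hold them together and their receptor phosphatases were read in the dentate gyrus of mice that overexpress the Nogo receptor. The members were the 10 genes *Acan*, *Bcan*, *Ncan*, *Vcan*, *Cspg5*, *Tnr*, *Hapln1*, *Hapln4*, *Ptprz1* and *Ptprs*, chosen by name, with all probe sets annotated to 1 of them alone. They had 28 of the 45037 probe sets on the array that are not controls, and 19 of the 28 were bright enough to be tested. None of the 19 passed the test in any comparison. The nearest to a shared difference was in *Ptprz1*, where 2 of 3 probe sets averaged 1.23-fold higher with the transgene on. Both were near level in experiment 2 (log2 differences of 0.07 and 0.17), and the third probe set averaged −0.02. In *Ncan*, 2 of 3 probe sets read higher in the bitransgenic arrays of set 3 but lower in those of experiment 2, and in set 1 about as high on the doxycycline diet as with doxycycline removed.

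The series holds 21 Affymetrix arrays of total RNA from dentate gyrus, 3 in each of 7 groups. Bitransgenic mice carry an NgR transgene under a pTRE promoter together with tTA, the transactivator that doxycycline blocks, and monotransgenic mice of set 1 are stated to lack tTA. Set 1 held bitransgenic mice on water with doxycycline removed to switch NgR on, and bitransgenic mice kept on a doxycycline diet that holds NgR off. It also held monotransgenic mice on water, whose labels likewise give doxycycline as removed. In what follows, removed names the bitransgenic group alone. Experiment 2 held bitransgenic mice on water that never met doxycycline and monotransgenic mice on water. Set 3 held bitransgenic and monotransgenic mice, and its labels do not say whether doxycycline was given. Its bitransgenic arrays are counted here as having the transgene on, though the labels do not state it. The promoter that drives tTA, and the age, sex and strain of the mice, are not given in the labels, nor is it said that each array is a separate animal, so the p-values reflect spread among these arrays, which may be technical.

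Perineuronal nets are dense coats of extracellular matrix around the cell body and dendrites of certain neurons, best known around parvalbumin interneurons. Hyaluronan forms their backbone, lecticans (aggrecan, brevican, neurocan and versican) bind it through link proteins, and tenascin-R cross-links the lecticans. The chondroitin sulphate chains of these proteoglycans restrain axon growth and plasticity. Receptors on neurons that bind the chains include the phosphatase PTPσ and members of the Nogo receptor family, so the overexpressed receptor belongs to the same system. PTPζ is both a receptor phosphatase and, as its secreted form phosphacan, a proteoglycan of the matrix.

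The start regions of *Ptprz1* and *Ncan* are shown because these genes had the lowest unadjusted p-values among the higher probe sets. The sequences are from RefSeq on GRCm38.p6 and run 250 bases before to 50 bases after the annotated start, 5′ to 3′ on the gene's strand. *Ptprz1* lies at chr6:22875252-22875551 on the plus strand and *Ncan* at chr8:70120795-70121094 on the minus strand. Capitals mark matches on either strand to 3 short motifs, none of which overlap here. The GC box was searched as GGGCGG. The second motif, named for its letters, was CCAAT, the binding string of a common promoter factor. The TATA box was searched as TATAAA, in full and with no mismatch.
Ptprz1: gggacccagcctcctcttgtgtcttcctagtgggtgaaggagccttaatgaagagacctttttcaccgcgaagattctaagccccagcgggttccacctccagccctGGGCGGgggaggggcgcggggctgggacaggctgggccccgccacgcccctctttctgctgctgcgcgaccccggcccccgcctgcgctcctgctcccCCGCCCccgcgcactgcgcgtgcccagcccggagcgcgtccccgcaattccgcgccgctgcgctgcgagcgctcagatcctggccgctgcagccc
Ncan: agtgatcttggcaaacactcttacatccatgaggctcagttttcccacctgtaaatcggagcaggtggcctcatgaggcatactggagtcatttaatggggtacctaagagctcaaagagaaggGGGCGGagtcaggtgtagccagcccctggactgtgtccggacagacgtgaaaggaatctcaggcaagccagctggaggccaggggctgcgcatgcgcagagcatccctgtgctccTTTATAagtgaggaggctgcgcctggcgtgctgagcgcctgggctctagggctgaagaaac
The *Ptprz1* window is 71.7% G and C, with 29 CpG dinucleotides and 2 GC box matches. The *Ncan* window is 56.7% G and C, with 9 CpG dinucleotides, 1 GC box match and 1 TATA box match. Over all 32851 promoters of this length the median was 52.7% with 7 CpG dinucleotides, and 35.7% held a GC box match, 37.4% a CCAAT match and 13.6% a TATA match. A match is a string of letters and not a shown binding site. The table held 9 promoters for 8 of the 10 genes, all but *Cspg5* and *Hapln4*. The *Acan* promoter had the highest G and C content of them (74%, 31 CpG) and the *Tnr* promoter the lowest (48%, 3 CpG).

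In the gene order of the GRCm38.p6 annotation, each lectican neighbours a link protein gene. *Acan* on chromosome 7 lies beside *Hapln3*, *Bcan* on chromosome 3 beside *Hapln2*, *Ncan* on chromosome 8 beside *Hapln4*, and *Vcan* on chromosome 13 beside *Hapln1*. Both partners are members only for *Ncan* with *Hapln4* and for *Vcan* with *Hapln1*.

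The labels were checked on *Rtn4r*, the gene of the transgene product, whose probe set read 254 to 1470 on the 9 arrays with the transgene on, against 73.1 to 111 on the 3 doxycycline diet arrays and 63.8 to 185 on the 9 monotransgenic arrays. Its mean difference over the 3 sets was 2.28 ± 0.23 log2 units (standard error, limma adjusted p = 1.9e-05). Granule cell markers were plentiful, with *Calb1* at 3750 to 7490, *Dsp* at 2800 to 6000 and *Prox1* at 318 to 951. Probe sets of glia and inhibitory neurons were also well above 0 (*Gja1* 1560 to 2780, *Mbp* 2110 to 3880, *Gad1* 2900 to 5400), so the samples hold other cell types too. In such samples fewer cells of a type and less RNA per cell cannot be told apart. The actin 3′ to 5′ log2 ratio, a sign of RNA quality, was highest in experiment 2, at 6.24 on bitransgenic replicate 2 and 5.84 on monotransgenic replicate 1, against 4.11 to 5.3 on the other 19 arrays.

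In set 3, monotransgenic replicate 2 stood apart from the other 2 arrays of its group in cell type markers. The summed intensity of 4 tested meninges and fibroblast markers was 83.05 on it, against 949.6 and 747.7 on replicates 1 and 3. The high values of that sum rest mostly on *Ogn*, which read 8.54 to 824 over all arrays. The sum of granule cell markers was 16520 on replicate 2, against 22620 and 21460. The sum for markers of CA1, CA3 and mossy cells, which rests mostly on *Nrip3* and *Cpne4*, was 2842 on it, against 1830 and 1743. The mean log2 level of the same markers went the other way, at 6.59 on it against 6.85 and 6.87. In each of these sums it lay near or inside the set 3 bitransgenic range (76.91 to 199.6, 15420 to 17820 and 2582 to 2768). Without it 79 of 27022 probe sets (0.292%) passed in set 3, against 0 with it, and 435 (1.61%) passed for the mean over the 3 sets, against 19 with it, while 0 of 19 member probe sets passed in either comparison. Where a member's value on this array lay toward the bitransgenic arrays, leaving it out widens that member's difference.

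Values are the deposited linear intensity of a probe set, given per array in replicate order, and log2 differences are from quantile-normalized log2(intensity + 16), which understates the change of dim probe sets. Errors on differences are standard errors and errors on means are SDs (n = 3 arrays in each group). A probe set passed at a limma adjusted p under 0.05 over the 27022 probe sets tested. By that rule 0 of 19 member probe sets passed in each of 9 comparisons. The share of all tested probe sets that passed was 0.0185% for removed over diet, 0.0333% for removed over monotransgenic and 0.0037% for diet over monotransgenic in set 1. It was 0.311% in experiment 2, 0% in set 3 and 0.0703% for the mean of the 3 differences with the transgene on. For the difference between sets it was 0.0074% for set 1 minus experiment 2, 0% for set 1 minus set 3 and 0.0074% for experiment 2 minus set 3. With so few passing anywhere in this pooled fit, 0 of 19 says little about the members.

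At an unadjusted p under 0.05 the members numbered 2 of 19 for removed over diet (4.72% of all probe sets tested), 1 of 19 for removed over monotransgenic (6.86%), 2 of 19 for diet over monotransgenic (3.75%) and 3 of 19 in set 3 (4.63%), all of them higher. They numbered 1 of 19 in experiment 2, lower (15.9% of all), and 2 of 19 for the mean over the 3 sets, both *Ptprz1* and higher (11.8%). For the differences between sets the count was 1 of 19 for set 1 minus experiment 2 (8.94%), 0 of 19 for set 1 minus set 3 (3.92%) and 2 of 19 for experiment 2 minus set 3 (8.53%). All 3 of these were *Ncan* probe sets. The median member difference was −0.05, −0.04 and 0.04 in the 3 comparisons of set 1, −0.09 in experiment 2, 0.08 in set 3 and −0.01 for the mean, beside medians between 0 and 0.011 over all probe sets tested. The 3 comparisons of set 1 share groups, and so are not independent.

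Groups did not overlap for 5 of 19 member probe sets in removed against diet (2 higher, 3 lower), where 14.7% of all probe sets tested had no overlap. The same count held for removed against monotransgenic (2 higher, 3 lower), beside 19.2% of all. It was 4 of 19 for diet against monotransgenic (3 higher, 1 lower), beside 13.6%, and 3 of 19 in set 3, all higher, beside 13.9%. In experiment 2 it was 0 of 19, beside 10.2% of all. The difference with the transgene on had the same sign in all 3 sets for 7 of 19 member probe sets, or 36.8%, beside 29.5% of all. Overlap here was judged on normalized values.

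**Figure D1:**
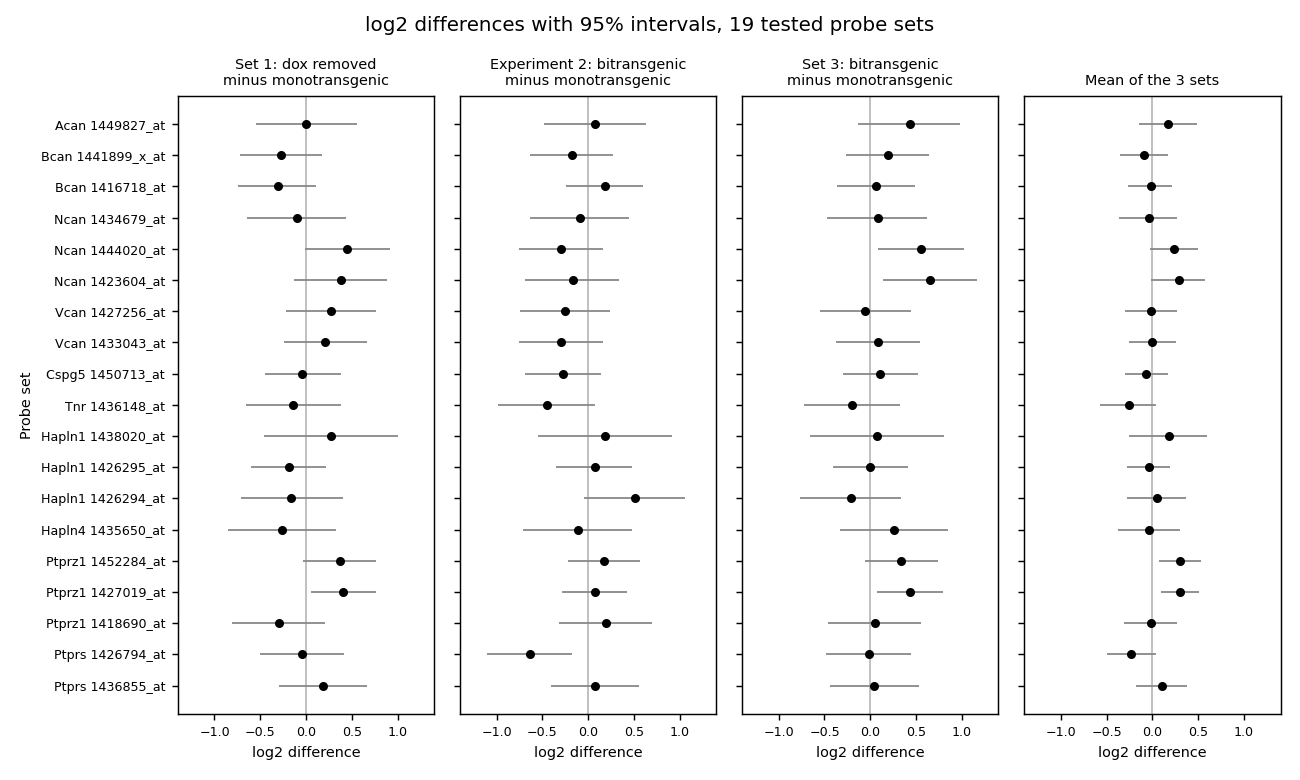
log2 differences of the 19 tested member probe sets (points) with 95% confidence intervals from limma, with the transgene on minus monotransgenic, in each set and as the mean of the 3 sets. Most intervals include 0, and the intervals of the mean that do not are those of 2 *Ptprz1* probe sets, each at 0.30.

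Among the lecticans, *Acan* codes for aggrecan, the proteoglycan most closely tied to nets. It read 45.2, 80.8 and 86.9 with doxycycline removed, 79.5, 68.2 and 78.7 on the diet, against 66.9, 61.9 and 87.5 in monotransgenic mice of set 1. In set 1 the 3 groups overlapped throughout. It read 98.9, 150 and 92.1 in bitransgenic against 104, 178 and 82.6 in monotransgenic arrays of experiment 2, and 119, 113 and 113 in bitransgenic against 72.9, 130 and 55.8 in monotransgenic arrays of set 3. The set 3 bitransgenic arrays lay close together and inside the wide monotransgenic range, with a difference of 0.43 ± 0.27 log2 units (unadjusted p = 0.125). Without monotransgenic replicate 2, the array at 130, that difference was 0.71 (adjusted p = 0.514). The mean over the 3 sets was 0.17 (95% interval −0.15 to 0.49). Its normalized level was highest in experiment 2 and lowest in set 1, in both genotypes. As deposited, the bitransgenic mean was 113.5 in experiment 2 and 115.1 in set 3. Set cannot be told apart from anything else that differed between the sets.

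*Bcan* codes for brevican, a lectican that glia secrete in the adult brain. Its brighter probe set, 1441899_x_at, of a type whose probes can also match other transcripts, read 553, 542 and 497 with doxycycline removed, against 806, 576 and 620 on the diet and, in monotransgenic mice of set 1, 598, 633 and 688. All 3 removed arrays lay under all 6 others of the set, by −0.31 ± 0.22 against the diet (unadjusted p = 0.161) and −0.27 ± 0.22 against monotransgenic (unadjusted p = 0.22), which the test did not separate from the spread. In set 3 the order was the other way, with 780, 747 and 691 in bitransgenic and 665, 710 and 569 in monotransgenic arrays (0.19 ± 0.22). Experiment 2 read 891, 454 and 642 in bitransgenic and 844, 916 and 490 in monotransgenic arrays, spans that cover all the arrays of the other sets. The dimmer probe set, 1416718_at, was also lower without overlap against monotransgenic in set 1, at 44.7, 44.1 and 31.8 with doxycycline removed against 50.2, 56.2 and 61.2 (−0.31 ± 0.20), but it overlapped the diet arrays at 39.6, 60.6 and 37.5.

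*Ncan* codes for neurocan, a lectican abundant in the developing brain. Its probe set 1423604_at read 123, 132 and 125 in bitransgenic against 68.7, 87.7 and 70.7 in monotransgenic arrays of set 3. The 2 groups stood well apart, at means of 127 ± 5.00 in bitransgenic and 75.7 ± 10.5 in monotransgenic arrays, and differed by 0.65 ± 0.25 log2 units (unadjusted p = 0.0145, limma adjusted p = 1). Probe set 1444020_at followed, at 106, 94.8 and 130 in bitransgenic against 58.4, 75.1 and 79 in monotransgenic arrays (0.55 ± 0.22, unadjusted p = 0.0211, limma adjusted p = 1). Without monotransgenic replicate 2 the differences were 0.74 (limma adjusted p = 0.497) and 0.59 (limma adjusted p = 0.678). The third, 1434679_at, did not separate them, with 144, 142 and 125 in bitransgenic and 126, 147 and 121 in monotransgenic arrays (0.08 ± 0.26).

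In set 1 the same *Ncan* probe sets also averaged above monotransgenic, on the doxycycline diet as well as off it. Probe set 1444020_at read 136, 89.8 and 194 with doxycycline removed and 137, 122 and 164 on the diet, against 95.8, 109 and 86.2 in monotransgenic mice. The diet arrays all lay above the monotransgenic ones (0.47 ± 0.22, unadjusted p = 0.0456, limma adjusted p = 1), and removed over diet was −0.02 ± 0.22. Probe set 1423604_at read 138, 54.4 and 145 with doxycycline removed and 123, 78.9 and 107 on the diet, against 77.3, 91.6 and 68.6 in monotransgenic mice. Replicate 2 of the removed group was the lowest of the 3 in all 3 *Ncan* probe sets, also in 1434679_at, which read 110, 43 and 153 there, against 107, 112 and 170 on the diet and, in monotransgenic mice, 90.4, 115 and 106. Without it the removed over monotransgenic difference of 1423604_at was 0.77, against 0.38 with it, and the adjusted p was 0.25.

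In experiment 2 the *Ncan* probe sets pointed the other way. Probe set 1444020_at read 75.2, 79.7 and 61.1 in bitransgenic and 125, 104 and 87.4 in monotransgenic arrays, and 1423604_at read 71.5, 100 and 94.2 in bitransgenic and 115, 119 and 106 in monotransgenic arrays. As deposited neither pair of groups overlaps, but after quantile normalization both do, and the differences were −0.30 ± 0.22 and −0.17 ± 0.25. The third, 1434679_at, read 104, 71.8 and 102 in bitransgenic and 98, 128 and 107 in monotransgenic arrays (−0.09 ± 0.26). The difference in experiment 2 minus that in set 3 was −0.86 ± 0.31 for 1444020_at (unadjusted p = 0.0127) and −0.83 ± 0.35 for 1423604_at (unadjusted p = 0.0266), each at a limma adjusted p of 0.556. Set 1 minus experiment 2 was 0.76 ± 0.31 for 1444020_at (unadjusted p = 0.0252, limma adjusted p = 0.503).

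**Figure D2:**
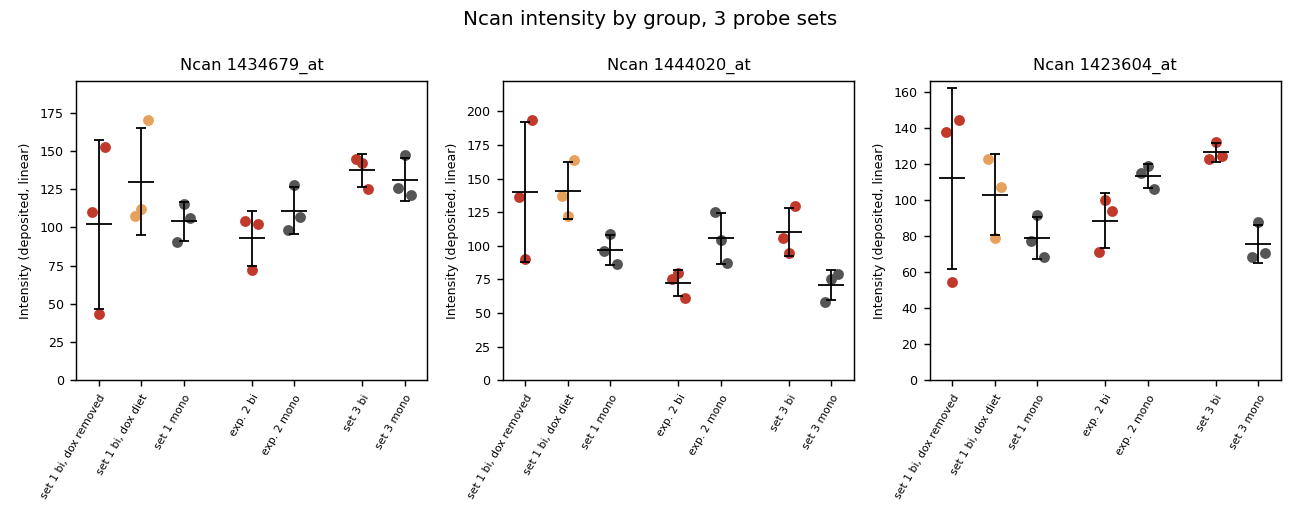
Deposited intensity of the 3 *Ncan* probe sets on each array (points) by group, with the mean (bar) and SD; linear axes start at 0, bi is bitransgenic, mono is monotransgenic and dox is doxycycline. For 1444020_at and 1423604_at, bitransgenic arrays lie above monotransgenic arrays in set 3 and below them in experiment 2.

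*Vcan* codes for versican, a lectican of oligodendrocyte precursors and of developing tissue. Its 8 probe sets were dim, 6 of them never above 20.3, and only 1427256_at and 1433043_at were tested. Probe set 1427256_at read 52.4, 41.6 and 39.4 with doxycycline removed and 60.2, 57.9 and 62.2 on the diet, against 36.2, 21.2 and 56 in monotransgenic mice. The diet arrays were the highest of set 1, 0.55 ± 0.24 log2 units above monotransgenic (unadjusted p = 0.0291, limma adjusted p = 1), and the removed arrays lay below all of them (−0.29 ± 0.24). It read 22.1, 58.5 and 32.6 in bitransgenic and 60.6, 49.7 and 54.6 in monotransgenic arrays of experiment 2, and 46.5, 47.6 and 46.6 in bitransgenic and 55.4, 49.8 and 51 in monotransgenic arrays of set 3. The mean over the 3 sets was −0.01 ± 0.14, and that of 1433043_at, which read 9.80 to 43.2 over all arrays, was 0.00 ± 0.13.

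*Cspg5* codes for neuroglycan C, a membrane-spanning proteoglycan of neurons. It read 54.4, 39 and 44.5 with doxycycline removed and 67, 51.3 and 53.6 on the diet, against 49.3, 49 and 49 in monotransgenic mice of set 1. The removed group overlapped both others. Experiment 2 read 59.4, 22.1 and 48.4 in bitransgenic and 68.7, 58 and 57.9 in monotransgenic arrays, where the low value was from the array of highest actin ratio, and set 3 read 61.2, 51.8 and 56.1 in bitransgenic and 52.6, 49.6 and 56.5 in monotransgenic arrays. The mean over the 3 sets was −0.07 ± 0.11.

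*Tnr* codes for tenascin-R, the cross-linker of lecticans in nets, which oligodendrocytes and some interneurons make. It averaged 487 ± 32.6 with doxycycline removed and 605 ± 80.2 on the diet, against 559 ± 199 in monotransgenic mice of set 1. All removed arrays (456, 521 and 484) lay under all diet arrays (559, 558 and 698) and inside the monotransgenic range (570, 355 and 753). Experiment 2 read 463, 200 and 409 in bitransgenic against 459, 360 and 656 in monotransgenic arrays, and set 3 read 389, 430 and 465 in bitransgenic against 494, 461 and 517 in monotransgenic arrays. The difference from monotransgenic was below 0 in each set (−0.14, −0.45 and −0.20), with a mean of −0.26 ± 0.15 (95% interval −0.57 to 0.04, unadjusted p = 0.0824, limma adjusted p = 0.493). The value of 200 was again from the array of highest actin ratio, and leaving out single arrays moved the mean between −0.36 and −0.16. For the same mean, 8 tested oligodendrocyte and myelin markers were 0 higher and 8 lower (median −0.19). Of 10 inhibitory neuron markers, 1 was higher and 9 lower (median −0.11), and none in either list passed. Whether these markers bear on *Tnr* was not tested.

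The link proteins were dim. *Hapln1*, which ties lecticans to hyaluronan and is needed for compact nets, had 4 probe sets, of which 3 were tested. The brightest, 1438020_at, read 22.9 to 62.6 with doxycycline removed, 21.4 to 51 on the diet, against 21.5 to 65 in monotransgenic mice of set 1, with the same width of spread in the other sets, and its mean difference was 0.18 ± 0.20. Probe set 1426295_at averaged −0.04 ± 0.11. Probe set 1426294_at had the largest positive difference of experiment 2 among members, 0.51 ± 0.27 (unadjusted p = 0.0718, limma adjusted p = 0.357), with 26.9, 34.1 and 7.73 in bitransgenic and 19.8, 1.94 and 21.3 in monotransgenic arrays, which overlap.

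*Hapln4*, the link protein of inhibitory synapses and nets that partners brevican, read 37.2, 20.7 and 28.7 with doxycycline removed and 8.27, 50.9 and 33.2 on the diet, against 60.9, 38.3 and 22.5 in monotransgenic mice of set 1. These groups overlapped broadly. Experiment 2 read 23.3, 19.5 and 22 in bitransgenic and 27, 37.3 and 28.9 in monotransgenic arrays, apart as deposited but not after normalization (−0.11 ± 0.28). Set 3 read 33.8, 42.9 and 29 in bitransgenic and 32.2, 27.3 and 21.8 in monotransgenic arrays (0.26 ± 0.28). The mean over the 3 sets was −0.04 ± 0.16.

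**Figure D3:**
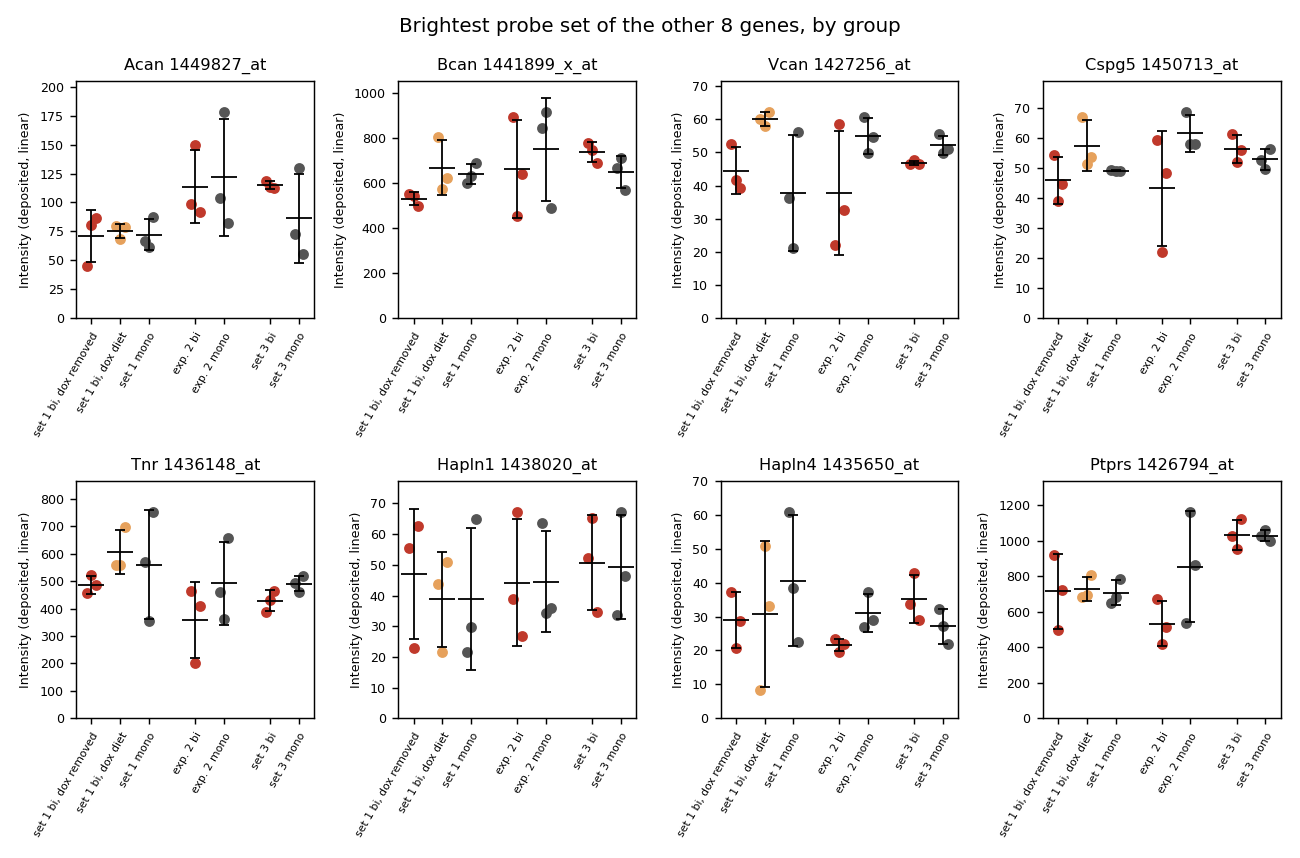
Deposited intensity of the probe set of highest mean for each of the other 8 genes on each array (points) by group, with the mean (bar) and SD; linear axes start at 0, bi is bitransgenic, mono is monotransgenic and dox is doxycycline. *Bcan* lies lowest with doxycycline removed in set 1, and the *Ptprs* arrays of set 3, from 951 to 1120, lie close together in both genotypes.

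Among the receptors, *Ptprz1* codes for PTPζ, which astrocytes and oligodendrocyte precursors make. Probe set 1427019_at read 498, 458 and 371 with doxycycline removed and 271, 295 and 304 on the diet, against 320, 350 and 318 in monotransgenic mice of set 1. All 3 removed arrays lay above all 6 others, and all diet arrays lay below all monotransgenic ones. The removed group was higher than the diet group by 0.58 ± 0.17 log2 units (95% interval 0.23 to 0.94, unadjusted p = 0.00256, limma adjusted p = 0.585) and higher than monotransgenic by 0.40 ± 0.17 (unadjusted p = 0.0277, limma adjusted p = 0.632). Diet over monotransgenic was −0.18 ± 0.17.

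The brightest *Ptprz1* probe set, 1452284_at, gave the same order in set 1. It read 1712, 1635 and 1348 with doxycycline removed and 938, 1045 and 1254 on the diet, against 1205, 1071 and 1262 in monotransgenic mice. The removed arrays again lay above the 6 others, by 0.50 ± 0.19 over the diet (unadjusted p = 0.0155, limma adjusted p = 0.951) and 0.37 ± 0.19 over monotransgenic (unadjusted p = 0.0652).

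In set 3, 1427019_at read 655, 567 and 582 in bitransgenic against 401, 558 and 404 in monotransgenic arrays. The groups did not overlap, though monotransgenic replicate 2 came close, and they differed by 0.43 ± 0.17 (unadjusted p = 0.02, limma adjusted p = 1). Probe set 1452284_at read 1876, 1548 and 1327 in bitransgenic against 1021, 1630 and 1151 in monotransgenic arrays, where replicate 2 reached into the bitransgenic range (0.34 ± 0.19). That array was the highest of its group in both probe sets, so leaving it out widens the differences. They were then 0.59 (limma adjusted p = 0.237) and 0.54 (limma adjusted p = 0.456). In experiment 2 both were near level, with 581, 554 and 424 in bitransgenic against 485, 568 and 405 in monotransgenic arrays for 1427019_at (0.07 ± 0.17), and 2197, 2074 and 2183 in bitransgenic against 2511, 1845 and 1287 in monotransgenic arrays for 1452284_at (0.17 ± 0.19).

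The mean over the 3 sets was 0.30 ± 0.10 for 1427019_at (95% interval 0.09 to 0.51, unadjusted p = 0.00621, limma adjusted p = 0.201) and 0.30 ± 0.11 for 1452284_at (95% interval 0.07 to 0.53, unadjusted p = 0.0139, limma adjusted p = 0.27). Without set 3 monotransgenic replicate 2 the means were 0.35 (limma adjusted p = 0.0672) and 0.36 (limma adjusted p = 0.0909). Under array weights 1452284_at passed at 0.39 (limma adjusted p = 0.0341), in a fit in which 3.8% of all probe sets passed. The third probe set, 1418690_at, did not share the pattern. It read 135, 164 and 168 with doxycycline removed and 177, 149 and 236 on the diet, against 203, 176 and 226 in monotransgenic mice of set 1, and the removed group was lower there without overlap (−0.30 ± 0.24). Its mean over the 3 sets was −0.02 ± 0.14, from 153, 308 and 168 in bitransgenic and 242, 188 and 131 in monotransgenic arrays of experiment 2 and 152, 139 and 120 in bitransgenic and 140, 129 and 131 in monotransgenic arrays of set 3.

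**Figure D4:**
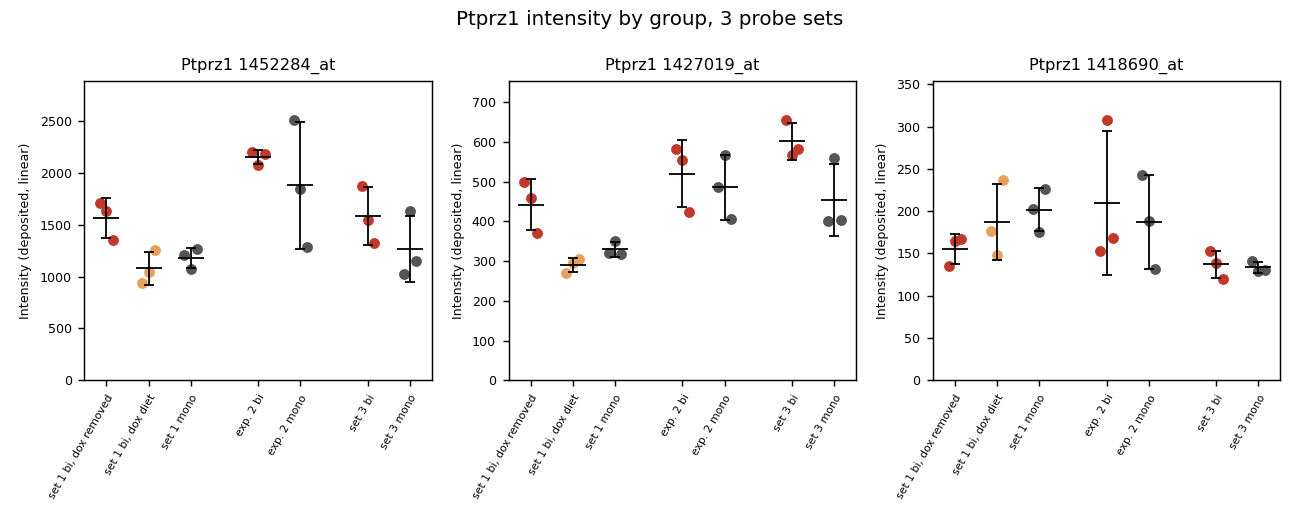
Deposited intensity of the 3 *Ptprz1* probe sets on each array (points) by group, with the mean (bar) and SD; linear axes start at 0, bi is bitransgenic, mono is monotransgenic and dox is doxycycline. For 1452284_at and 1427019_at the 3 arrays with doxycycline removed lie above the other 6 of set 1, and for 1418690_at they do not.

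By normalized level, 1452284_at was highest in experiment 2, with bitransgenic first and monotransgenic next, followed by set 3 bitransgenic, set 1 removed, set 3 monotransgenic, set 1 monotransgenic and set 1 diet. The mean intensities in that order were 2152 ± 67.3, 1881 ± 613, 1584 ± 276, 1565 ± 192, 1268 ± 321, 1179 ± 97.9 and 1079 ± 161. Each pair of neighbours in it differed by less than the larger of the pair's SDs.

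Cell type markers were read beside these differences. Of 10 granule cell markers, 8 were lower and 2 higher in removed over monotransgenic (median −0.24) and in set 3 bitransgenic over monotransgenic (median −0.36), and none passed the test. In diet over monotransgenic 7 were lower and 3 higher (median −0.23). In experiment 2 it was 6 lower and 4 higher (median −0.1), again with none passing in either. Their summed intensity ran from 16580 to 20630 with doxycycline removed and from 18680 to 19760 on the diet, against 20750 to 23660 in monotransgenic mice of set 1. It ran from 20730 to 21260 in bitransgenic against 18060 to 25080 in monotransgenic arrays of experiment 2, and from 15420 to 17820 in bitransgenic against 16520 to 22620 in monotransgenic arrays of set 3. Diet over monotransgenic was −0.18 ± 0.17 for *Ptprz1* 1427019_at and −0.13 ± 0.19 for 1452284_at, neither at an unadjusted p under 0.05. Whether the granule cell sums bear on the *Ptprz1* values was not tested.

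Of 10 astrocyte markers, 4 were higher and 6 lower in removed over monotransgenic (median −0.08) and 7 higher and 3 lower in set 3 (median 0.06), with none passing. Their sum ran from 5271 to 6323 with doxycycline removed and from 5915 to 6798 on the diet, against 5839 to 6533 in monotransgenic mice of set 1. It ran from 5035 to 6496 in bitransgenic against 4867 to 6829 in monotransgenic arrays of experiment 2, and from 5922 to 6712 in bitransgenic against 5265 to 7217 in monotransgenic arrays of set 3.

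Of 6 meninges and fibroblast markers, 4 were tested. In removed over monotransgenic 1 was higher and 3 lower (median −0.83), and *Ogn*, which codes for osteoglycin, a small proteoglycan of connective tissue, passed at −4.16 ± 0.72 (limma adjusted p = 0.0338). For the mean over the 3 sets 1 was higher and 3 lower (median −0.29), and *Ogn* passed at −2.61 ± 0.42 (limma adjusted p = 0.0176). In set 3 all 4 were lower (median −0.26) and none passed. The sum ran from 57.48 to 94.08 with doxycycline removed and from 81.69 to 108.8 on the diet, against 702.5 to 861.9 in monotransgenic mice of set 1. It ran from 83.42 to 136.7 in bitransgenic against 149.5 to 585.4 in monotransgenic arrays of experiment 2, and from 76.91 to 199.6 in bitransgenic against 83.05 to 949.6 in monotransgenic arrays of set 3. The monotransgenic sums thus lay above all bitransgenic sums in set 1 and in experiment 2, and in set 3 on all arrays but replicate 2. The high sums rest mostly on *Ogn*, which read 8.54 to 824 over all arrays. The highest values of *Lum*, *Dcn* and *Col1a2* were 112, 32 and 29.5. In experiment 2, 2 of the tested markers were higher and 2 lower (median 0.06).

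Of 10 markers of CA1, CA3 and mossy cells, 9 were tested and none passed. In removed over monotransgenic 2 were higher and 7 lower (median −0.38), in set 3 it was 4 and 5 (median −0.04), and for the mean 3 and 6 (median −0.14). Their sum ran from 1987 to 2631 with doxycycline removed and from 2244 to 2546 on the diet, against 1823 to 2086 in monotransgenic mice of set 1. It ran from 2193 to 2499 in bitransgenic against 1490 to 2057 in monotransgenic arrays of experiment 2, and from 2582 to 2768 in bitransgenic against 1743 to 2842 in monotransgenic arrays of set 3. The sums were thus mostly higher in bitransgenic arrays, while the medians of the differences were below 0. These sums rest mostly on *Nrip3*, which read 462 to 1860 over all arrays, and *Cpne4*, which read 340 to 842.

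Across the 21 arrays, with set means removed, the Pearson correlation with the granule cell list was −0.71 for *Ptprz1* 1427019_at, −0.67 for 1452284_at and −0.61 for *Ncan* 1423604_at, and with the astrocyte list it was 0.41, 0.50 and 0.24. With the meninges and fibroblast list it was −0.53, −0.48 and −0.54 for the same 3 probe sets, and with the CA1, CA3 and mossy cell list −0.57, −0.54 and −0.50. With the oligodendrocyte precursor list it was 0.03, 0.24 and 0.38. The third *Ptprz1* probe set, 1418690_at, gave 0.02, 0.34, 0.07, −0.31 and 0.20 with these lists in the same order. These arrays share their groups and normalization, the correlations are a description, and the part of cell makeup in the *Ptprz1* and *Ncan* values was not tested. None of the markers of the granule cell, astrocyte, meninges and fibroblast, and CA1, CA3 and mossy cell lists was listed at 0 on any array. The lowest was *Pou3f1* at 0.62.

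*Ptprs* codes for PTPσ, the neuronal receptor of chondroitin sulphate. Its brighter probe set, 1426794_at, gave the lowest p-value of the members in experiment 2. It read 668, 416 and 513 in bitransgenic against 536, 1162 and 862 in monotransgenic arrays, where monotransgenic replicate 1 lay inside the bitransgenic range. The difference was −0.64 ± 0.22 log2 units (95% interval −1.10 to −0.18, unadjusted p = 0.00906, limma adjusted p = 0.181). This error and interval pool the spread of all groups. The SD of its log2 values was 0.30 in bitransgenic and 0.55 in monotransgenic arrays here. It was 0.43 with doxycycline removed, 0.12 on the diet and 0.13 in monotransgenic mice of set 1. In set 3 it was 0.12 in bitransgenic and 0.05 in monotransgenic arrays. Without monotransgenic replicate 1, the lowest of its group, the difference widened to −0.93 and passed (limma adjusted p = 0.021). Without the 2 arrays of highest actin ratio, of which that replicate is 1, it was −0.79 and passed (limma adjusted p = 0.0339). In those fits 4.04% and 4.41% of all probe sets passed.

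In the same comparison the summed intensity of oligodendrocyte precursor markers ran from 318 to 424 in bitransgenic against 456 to 818 in monotransgenic arrays, with 7 of 8 tested markers lower and none passing, and whether this bears on *Ptprs* or *Tnr* was not tested. None of these markers was listed at 0 on any array, the lowest being *Matn4* at 0.493.

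In the other sets *Ptprs* 1426794_at showed no such difference. It read 920, 496 and 724 with doxycycline removed and 683, 692 and 804 on the diet, against 651, 681 and 786 in monotransgenic mice of set 1 (removed over monotransgenic −0.04 ± 0.22). It read 1026, 951 and 1120 in bitransgenic against 1026, 1061 and 996 in monotransgenic arrays of set 3 (−0.01 ± 0.22, 95% interval −0.48 to 0.45). The difference in experiment 2 minus that in set 3 was −0.63 ± 0.32 (unadjusted p = 0.0598, limma adjusted p = 0.594). The dimmer probe set, 1436855_at, gave 0.07 ± 0.23 in experiment 2, and its intensities ran from 38.8 to 104 over all arrays.

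Probe sets of 1 gene did not always move together across arrays. With set means removed, the Pearson correlation over 21 arrays was 0.80 between *Ptprz1* 1452284_at and 1427019_at, but 0.20 and 0.00 between these and 1418690_at. It was 0.83 between *Ncan* 1444020_at and 1423604_at and 0.51 and 0.58 with 1434679_at, 0.16 between the *Bcan* probe sets, 0.19 between the *Vcan* ones and 0.23 between the *Ptprs* ones. Between genes the highest was 0.59, for *Bcan* 1441899_x_at and *Cspg5*, followed by 0.51 for *Cspg5* and *Tnr* and for *Acan* and *Ptprz1* 1418690_at.

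The genes outside the members whose arrays followed a member most closely, by the same measure, were *Neto1* (r = 0.88) and *Hs3st4* (0.87) for *Ptprz1* 1452284_at, and *Grin3a* and *Akap2* (0.85 each) for 1427019_at. For 1418690_at they were *Ttyh1* (0.89) and *St6gal1* (0.85). They were *Plcd1* (0.77 and 0.75) for *Ncan* 1444020_at and 1423604_at, *Csf1r* and *Trpm4* (0.86 each) for *Bcan* 1441899_x_at, *Sema5a* (0.85) for *Tnr* and *Supt6* (0.94) for *Ptprs* 1426794_at. They are the highest of a correlation with each other gene tested, over 21 arrays.

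The rest of the net system was read from 4 lists. Of 15 other matrix components, 10 were tested and none passed in any of the 9 comparisons. Their lowest p for removed over diet was that of *Nptx2*, a neuronal pentraxin that gathers in nets at synapses (1.30 ± 0.29, unadjusted p = 0.000202, limma adjusted p = 0.21), followed by *Crtac1* (−0.54) and *Cspg4* (−0.34). In removed over monotransgenic none of the 10 reached an unadjusted p under 0.05 (lowest limma adjusted p = 0.915). For the mean over the 3 sets the lowest p were those of *Cspg4* (−0.20), *Nptx1* (−0.11) and *Bgn* (0.25), with adjusted p from 0.538 to 0.671.

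Of 20 genes that build and sulphate chondroitin sulphate chains, 16 were tested and none passed. For the mean over the 3 sets 8 were higher and 8 lower (median −0.01). The lowest p were those of *Chst12*, a chondroitin 4-sulphotransferase (−0.59 ± 0.14, limma adjusted p = 0.0886), *Chst7*, a 6-sulphotransferase (−0.97 ± 0.24, limma adjusted p = 0.104), and *Chsy3*, a chain synthase (0.34 ± 0.19, limma adjusted p = 0.499). Of 17 matrix proteases and inhibitors, 14 were tested and none passed, with a median of −0.08 for the mean over the 3 sets. There the lowest p were those of *Timp2* (−0.60), *Mmp2* (−0.30) and *Adamts9* (−0.24), with adjusted p of 0.165, 0.454 and 0.469.

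Of 16 other receptors and partners of the net, all were tested, and for the mean over the 3 sets only *Rtn4r*, the transgene's own gene, passed. *Sema3a*, a guidance cue held in nets, was next at 0.64 ± 0.21 (limma adjusted p = 0.19), followed by *Plxna1*, a subunit of its receptor, at −0.46 ± 0.16 (limma adjusted p = 0.239). In set 3 *Rtn4r* itself had a limma adjusted p of 0.0889 at a difference of 2.47 ± 0.39, so in that set the adjusted test did not call even a change of this size. Without monotransgenic replicate 2 it passed there (2.49, limma adjusted p = 0.0252).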

How the data were processed

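Total RNA of 21 dentate gyrus samples was measured on Affymetrix mouse arrays. The values are the deposited linear intensity of each of 45101 probe sets. To judge from the values, the authors scaled each array so that the mean, trimmed by 2% at each end, is 150, and the processing tool and the methods for RNA are not given in the sources used here. Controls (64) were left out. The platform annotation gave a single symbol to 34945 of the other 45037, several to 932 and no symbol to 9160. Entrez IDs tied 34741 of the first to RefSeq. Members were named only from probe sets with 1 symbol.

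The deposited intensities were turned to log2(value + 16). Array medians ran from 5.19 to 5.49, and arrays were quantile-normalized. The 27022 probe sets in the upper 60% by mean level (log2 of at least 4.9) were tested with limma 3.58.1 in R 4.3.3 (package data.table at 1.17.8), with 1 coefficient per group over all 21 arrays (14 residual degrees of freedom) and a variance trend, two-sided, with Benjamini-Hochberg adjustment over those probe sets at 0.05. The spread is pooled over the 7 groups. The fit was tested on simulated data. The number of arrays limits the precision. Replicates were numbered in accession order. Other list genes were read from their probe set of highest mean.

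Members and lists were chosen with earlier results of these data known. The text names all members, the 3 list genes of lowest p where a list's genes are named for a comparison, and genes of highest correlation to a member, of which a selection was chosen after their values were seen. Alternatives were a pseudocount of 1 or 64, the upper 40% or no filter, no normalization or centring at the 75th percentile, 1 probe set per gene, separate fits of the sets, array weights, a fit with no trend, a set 3 factor for title prefix, a fit without the 2 arrays highest in actin ratio, the mean without experiment 2, and leaving out each array. Figures were drawn with matplotlib 3.10.9.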

Additional observations from a re-analysis of the deposited data

How the results depend on the processing

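The count of member probe sets that passed was 0 in each of the 9 comparisons, and it stayed at 0 under 176 of the combinations of comparison and alternative tried. It was 1 under 3 others. In experiment 2 it was 1 (*Ptprs* 1426794_at) without the 2 arrays of highest actin ratio, when 1193 of 27022 probe sets passed against 84 with all arrays, and leaving out each array in turn gave 0 to 1, the 1 being without monotransgenic replicate 1, when 1091 passed. For the mean over the 3 sets it was 1 (*Ptprz1* 1452284_at) with array weights, when 1027 passed against 19 with equal weights. These alternatives give less weight to, or leave out, arrays of experiment 2, whose weights ran from 0.14 to 1.67. The counts over all probe sets also depended on pooling the spread. With set 1 fitted alone, 114 of 27022 passed for removed over diet, against 5 when pooled. For removed over monotransgenic 417 passed, against 9, and for diet over monotransgenic 33, against 1. Fitted alone, experiment 2 had 0, against 84, and set 3 had 1, against 0. No member passed in these separate fits. No called value changed sign. The *Rtn4r* differences kept their direction under every alternative run. In the comparisons where *Rtn4r* had passed, it missed the threshold under 20 combinations of comparison and alternative. Examples are set 1 removed over diet with no filter (limma adjusted p = 0.0736) and experiment 2 with 1 probe set per gene (limma adjusted p = 0.062). In set 3, leaving out monotransgenic replicate 2 took the count over all probe sets to 79, against 0 with it, and no member passed. No paired analysis was possible by replicate number because these numbers follow accession order and pair no samples. Some title prefixes of set 3 are shared by arrays of both genotypes, and the labels do not say what they mark. With the prefix as a factor no member passed in set 3 or for the mean over the 3 sets (0 and 7 of 27022 probe sets passed), and *Ptprz1* 1427019_at differed by 0.40 and 0.29 and 1452284_at by 0.21 and 0.25.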
